A study of Danio rerio with 9 samples.

Results

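The later regenerate of the zebrafish caudal fin, taken 7 days after amputation (7 dpa), was compared with the uninjured fin. The comparison used 6 of the 9 libraries of the study, chosen by their labels: 3 from intact caudal fins and 3 from regenerates at 7 dpa. All fish were wild type, with no transgene or drug named, and the groups differed by removal of the fin and regrowth. The remaining 3 libraries, from regenerates at 3 dpa, were not tested here. They entered the filter on low values, the mean levels, the amount added to circRNA values and the estimate of the spread. Their values are also set side by side. The sources used here do not give the fish's age, how many fish went into each library, or whether any stump was collected with the regenerate. Of the transcripts listed, 25001 of 55393 mRNAs, 1671 of 4494 long non-coding RNAs (lncRNAs) and 3213 of 5578 circular RNAs (circRNAs) passed a filter on low values and were tested.

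A cut caudal fin is first covered by a wound epidermis, under which cells of the stump lose part of their specialised state and gather as a blastema. The blastema then grows outwards and lays down new bony fin rays, connective tissue, vessels, nerves and pigment, and the whole appendage is rebuilt over several weeks. An mRNA carries the code for a protein. A lncRNA is a long transcript without a clear coding frame, and a circRNA is a closed ring made when splicing joins the end of an exon back to an earlier one. At 7 dpa an outgrowth is present but is far from complete in this species, so the comparison with the intact fin asks which RNAs have not returned to their uninjured level.

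The mRNA and lncRNA tables gave a normalized signal per transcript. Their sequencing depth is unknown. The circRNA table gave RPM values, reads scaled to a fixed total of circRNA reads, from which whole reads were recovered, 14631 to 16262 per intact fin library and 12427 to 13507 per library at 7 dpa. Pearson's correlation between libraries, across mRNA transcripts on the log2 scale and as a description only, was 0.948 to 0.952 within intact fin, 0.949 to 0.953 within 7 dpa and 0.891 to 0.918 between them. Across circRNAs, where most counts are small, it was 0.644 to 0.647, 0.609 to 0.616 and 0.566 to 0.613. Transcripts are named by their IDs. IDs beginning with ENSDART are called annotated and those beginning with TCONS assembled. The files do not pair any ID with a gene name, so the tissue label was not set against marker genes and no gene function is given. In whole tissue, fewer cells of a type and less RNA per cell cannot be told apart.

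At 7 dpa 3093 mRNA transcripts were higher than in intact fin (12.4% of those tested) and 3289 were lower (13.2%), by limma's test at a Benjamini-Hochberg adjusted p under 0.05. Most of these differences were modest. The median rise was 0.68 on the log2(signal + 1) scale, a 1.60-fold change, and the median fall was -0.63, a 1.55-fold change. The difference was under 1.5-fold for 1188 of those higher and 1422 of those lower, and between 1.5-fold and 2-fold for 1223 and 1286. Rises of 2-fold or more numbered 682 (2.73% of those tested) and such falls 581 (2.32%). Past 8-fold there were 14 and 8. On this scale the change of transcripts with a low signal is understated.

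The called mRNA transcripts separated the groups library by library. All libraries at 7 dpa lay above all intact libraries for 3070 of the 3093 higher ones, and all lay below for 3252 of the 3289 lower ones. The same separation was found for 18.7% and 22.4% of all tested transcripts, and the call itself favours it. Of the higher ones 1908, and of the lower ones 1706, remained called in all 15 alternatives of the analysis that tested them. Among those with at least a 2-fold change, 601 of 682 and 430 of 581 remained. Which direction held the majority depended on scaling. With TMM factors, which rescale each library to its bulk of transcripts, 3548 were higher and 2723 lower, and with an equal mRNA plus lncRNA total 3494 and 2754, so no majority direction is given.

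On the log2(signal + 1) scale most of the mRNA table lay close to its intact level. This scale pulls transcripts with a low signal towards no change. The lowest quintile by mean signal ran from 0.35 to 1.57, so closeness there is partly built in. The estimate was within 1.5-fold for 19787 transcripts (79.1%), and the 95% interval of the change lay wholly within 2-fold for 18200 (72.8%). Among the 5001 transcripts of the highest quintile by mean signal this was so for 4081 (81.6%). A further 3816 transcripts were not called although their interval reached past 2-fold. For those the data neither showed a difference nor bounded it within 2-fold.

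**Figure D1:**
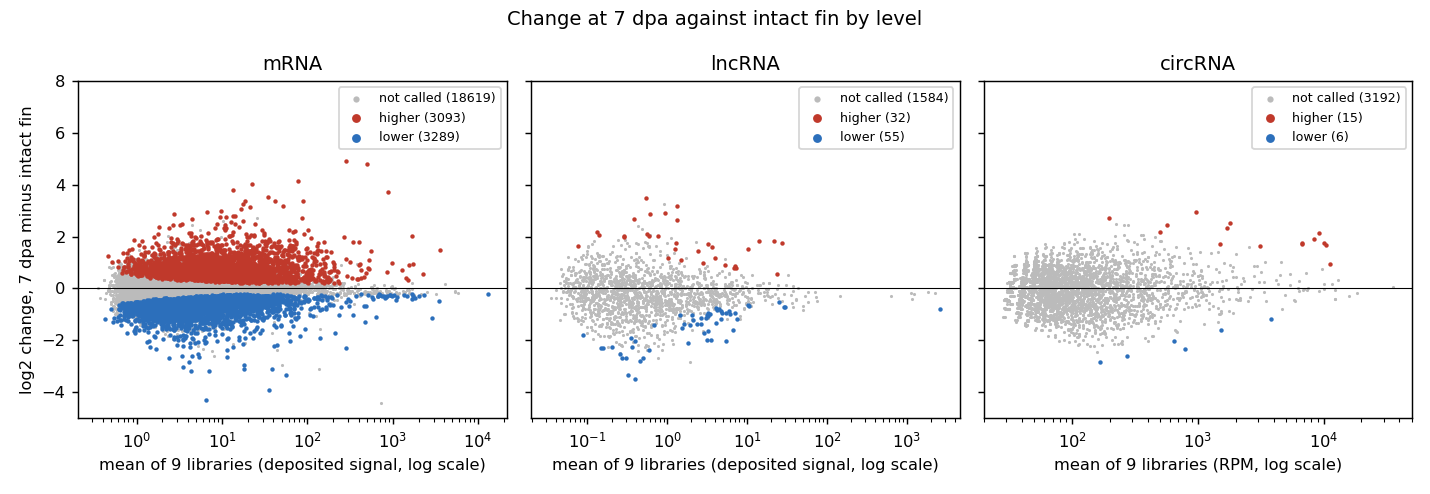
Log2 change at 7 dpa minus intact fin (vertical axis) against the mean of all 9 libraries (horizontal axis, log scale; deposited signal for mRNA and lncRNA, RPM for circRNA), one point per tested transcript. Red points were called higher (3093, 32 and 15), blue points lower (3289, 55 and 6) and grey points were not called.

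Calls were more frequent among abundant mRNAs. In the lowest quintile by mean signal 170 transcripts were higher and 338 lower, 10.2% of 5000 together. In the highest quintile 1276 were higher and 872 lower, 43.0% of 5001. On the log2(signal + 1) scale the median change without regard to sign was 0.30 in the lowest and 0.28 in the highest quintile. The median standard error fell from 0.24 to 0.10. The added 1 shrinks changes and errors in the lowest quintile, where mean signals were 0.35 to 1.57. These medians therefore do not compare the size of changes between levels. The balance of directions within a quintile is subject to the scaling described above.

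**Figure D2:**
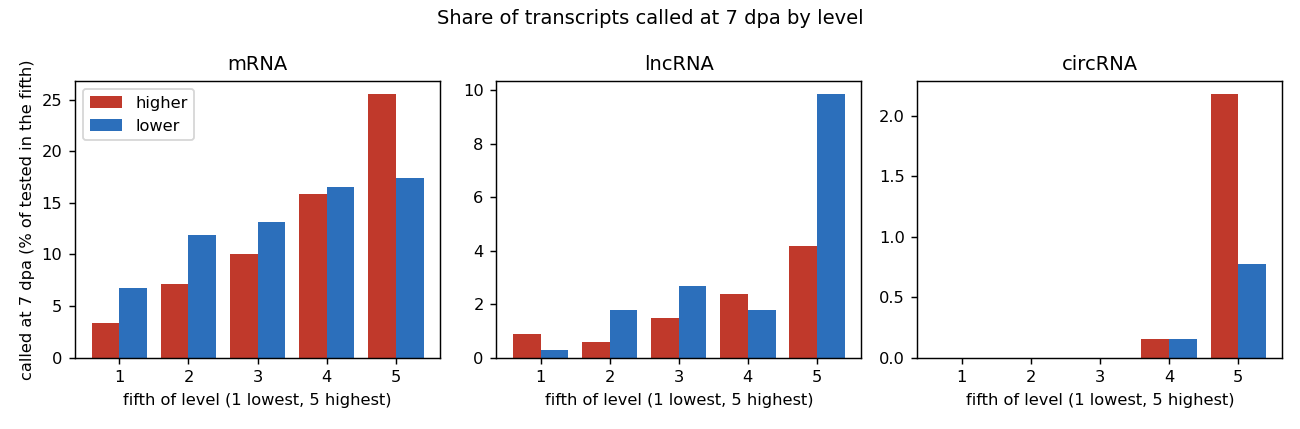
Percent of tested transcripts called higher (red) or lower (blue) at 7 dpa in each quintile of the mean over 9 libraries, from 1 (lowest) to 5 (highest), per table. In the highest quintile 43.0% of mRNAs, 14.0% of lncRNAs and 2.95% of circRNAs were called in either direction.

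The transcripts called higher at 7 dpa held 11.6%, 11.7% and 10.6% of the mRNA signal in the intact libraries and 20.7%, 20.9% and 19.8% at 7 dpa. Those called lower held 27.8%, 27.7% and 29.3% in intact fin and 20.3%, 19.96% and 20.5% at 7 dpa. In the intact fin the lower group thus outweighed the higher one in every library, and at 7 dpa both held nearly the same share. These shares describe the called transcripts, which were chosen on the same contrast. At 3 dpa, measured against the same intact libraries, the same transcripts held 28.2% ± 0.79 (SD, n = 3) and 15.3% ± 0.48. Their median log2 change against intact fin was 1.00 at 3 dpa for the higher and -0.96 for the lower ones.

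**Figure D3:**
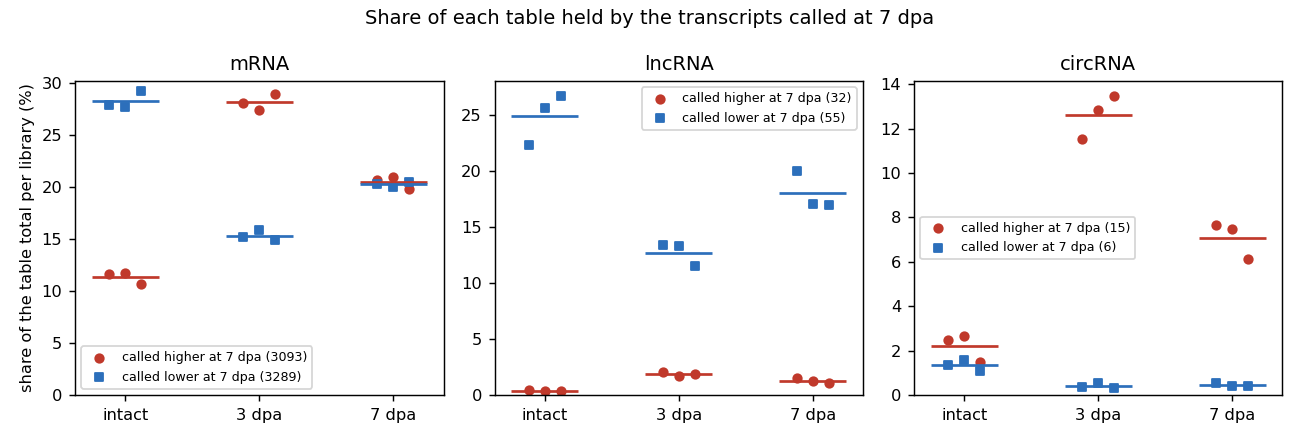
Share of each library's table total (percent) held by the transcripts called higher (red circles) or lower (blue squares) at 7 dpa, in intact fin, 3 dpa and 7 dpa libraries, with 1 point per library and the group mean as a line. In the mRNA table the means were 11.3% and 28.3% in intact fin and 20.5% and 20.3% at 7 dpa.

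Part of this shift lay in few transcripts. Over the mean of each group, the called rises added up to 36940 units of signal and the falls to 37318. The 10 transcripts with the largest differences made up 22.9% of the rise and 26.9% of the fall, and the 100 largest 47.9% and 55.2%. For scale, the 10 and 100 most abundant mRNAs over both groups held 13.3% and 36.9% of the signal in intact fin. What part abundance had in this concentration was not tested. The largest gain belonged to an annotated transcript that ranked 33rd in intact fin and 6th at 7 dpa. Its signal was 1460, 1589 and 1097 in intact fin and 3747, 3891 and 3710 at 7 dpa, a 2.77-fold rise on the log2(signal + 1) scale (log2 change 1.47, SE 0.12, limma adjusted p = 0.000127). At 3 dpa it stood higher still, at 5469 ± 364 (SD, n = 3). The largest loss belonged to an annotated transcript that ranked 5th in intact fin and 9th at 7 dpa, with 5740, 4950 and 5300 in intact fin and 2439, 2262 and 2630 at 7 dpa (log2 change -1.12, SE 0.12, limma adjusted p = 0.000381). At 3 dpa it stood at 759 ± 126. Both calls held in all 15 alternatives.

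The other leading mRNAs changed less. Of the 10 most abundant transcripts over both groups 1 rose and 3 fell, and 9 were among the 10 most abundant in each group. Of the 6 that were not called, 3 were nevertheless lower in every 7 dpa library than in any intact one, with log2 changes of -0.13 to -0.22 and limma adjusted p from 0.0742 to 0.153. Such a separation was found for 22.4% of all tested mRNAs, and quantile normalization gave these 3 changes of 0, 0 and 0.09. The most abundant one had 15632, 16214 and 16261 in intact fin and 13947, 14294 and 13587 at 7 dpa (log2 change -0.20, SE 0.06, limma adjusted p = 0.0342). The groups did not overlap, but the call was lost in 11 of 15 alternatives, among them TMM factors and leaving out any intact library or replicate 1 or 3 of 7 dpa, with adjusted p from 0.0185 to 1. The third fall, from 5211 ± 772 to 3724 ± 819 (SD, n = 3 each; log2 change -0.50, SE 0.16, limma adjusted p = 0.0471), was also lost in 11 of 15 alternatives, including without replicate 1 or 3 of intact fin and replicate 1 or 2 of 7 dpa. Among the 50 most abundant 8 rose and 16 fell, and among the 100 most abundant 11 rose and 30 fell, beside 12.4% and 13.2% of all tested mRNAs and with a balance of directions that depends on scaling as above. Of the 100 most abundant in intact fin, 90 were also among the 100 most abundant at 7 dpa.

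The largest rise in mRNA under the naming rule, on the log2(signal + 1) scale, was that of the assembled TCONS_00033479. Its signal was 6.42, 8.10 and 4.41 in intact fin and 214, 250 and 189 at 7 dpa. The naming rule admitted only calls without overlap between the groups. The means of TCONS_00033479 were 34.5-fold apart (log2 change 4.93, SE 0.18, limma adjusted p = 7.34e-06). At 3 dpa it was 643, 555 and 698, so the 7 dpa values lay between those of the other groups. The annotated ENSDART00000132089 had 12.8, 10.7 and 3.74 in intact fin and 254, 260 and 254 at 7 dpa (log2 change 4.81, SE 0.33, limma adjusted p = 5.77e-05). Its 3 libraries at 7 dpa were nearly equal, and at 3 dpa it had 1282, 1038 and 1314.

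The largest falls under the same rule ended at 0 or at a low signal. The assembled TCONS_00075960 had 20.4, 12.8 and 24.6 in intact fin while every library of 7 dpa and of 3 dpa listed it at 0 (limma adjusted p = 1.45e-05). It passed the filter on low values only through the intact libraries, which favours the call. No fold is given against a group at 0. The annotated ENSDART00000170253 had 78.5, 82.6 and 130.1 in intact fin, 9.44, 3.25 and 4.62 at 7 dpa and 2.64, 2.49 and 2.86 at 3 dpa. Its means at 7 dpa and in intact fin were 16.8-fold apart (log2 change -3.92, SE 0.31, limma adjusted p = 9.57e-05). The calls of these 4 transcripts held in all 15 alternatives.

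**Figure D4:**
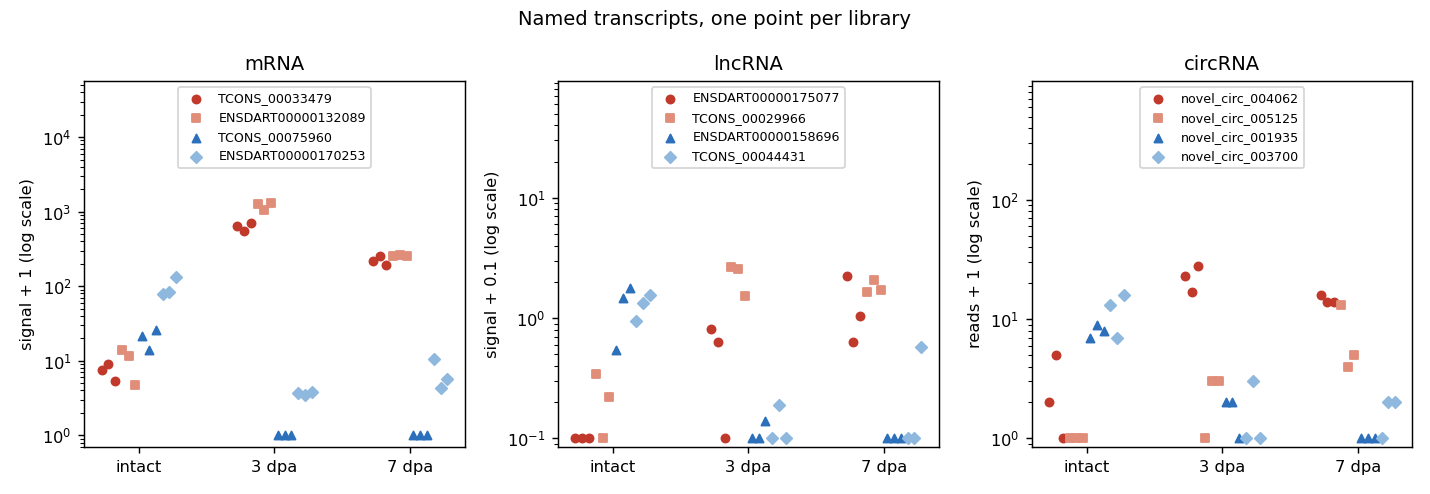
Values of the 4 named transcripts of each table in intact fin, 3 dpa and 7 dpa libraries, 1 point per library, on a log scale after adding 1 (mRNA signal, circRNA reads) or 0.1 (lncRNA signal). Warm colours mark rises and blue marks falls, and points on the lowest level are zeros.

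The 14 transcripts more than 8-fold higher included 9 annotated ones. Their means ranged from 0.0233 to 58.4 in intact fin, with a median of 3.59, and from 11.2 to 769 at 7 dpa, with a median of 40.5. At 3 dpa the same transcripts had a median of 82.3. The 8 transcripts more than 8-fold lower ranged from 8.28 to 148 in intact fin and from 0 to 16.3 at 7 dpa, and 3 of them were listed at 0 in every 7 dpa library.

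Transcripts present in one group and listed at 0 in the other were few and mostly low. Of the 55393 listed mRNAs, 223 were at 0 in all intact libraries and above 0 in all 7 dpa libraries, and 208 showed the opposite. The median of their mean signal was 0.25 and 0.245, and 30 and 26 reached a mean of 1. Of the first set 36 were tested and 25 called, and of the second 16 and 12. Over all tested mRNAs 25.5% were called, but these sets were picked for groups that do not overlap, which favours a call, so nothing is read from the difference. Among the 223, 78 were above 0 in every 3 dpa library and 30 were at 0 in all of them. Among the 208, 58 were at 0 in all 3 dpa libraries. A value of 0 in this table is the absence of an estimated signal, and with the depth unknown it gives no upper limit.

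In the main fit annotated and assembled mRNAs held different shares of rises and falls. Of 19856 annotated transcripts tested 2632 (13.3%) rose and 2560 (12.9%) fell, and of 5145 assembled ones 461 (8.96%) rose and 729 (14.2%) fell. At least 2-fold changes numbered 573 and 432 among annotated and 109 and 149 among assembled transcripts. The median log2 change over all tested was -0.03 for annotated and -0.09 for assembled transcripts, against -0.04 for the whole table. Transcripts of 1 gene can share reads, and the difference between the classes was not tested. The balance of directions within each class is subject to the scaling described above, and the classes were not matched by level.

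Among lncRNAs 87 were called (5.21% of those tested), 32 higher at 7 dpa (1.92%) and 55 lower (3.29%). For all of them the groups did not overlap, as was so for 6.28% (7 dpa above) and 18% (7 dpa below) of all tested. The median called change was 1.75 for rises (3.37-fold) and -1.36 for falls (2.57-fold) on the log2(signal + 0.1) scale, which cannot be set against the mRNA medians because the pseudocounts differ. Past 2-fold there were 26 rises (1.56% of those tested) and 38 falls (2.27%). The median standard error over all tested lncRNAs was 0.52 on this scale, which limits how small a change can be called. The 95% interval of the change lay within 2-fold for 284 of 1671 lncRNAs (17.0%). For 1305 that were not called the interval reached past 2-fold.

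The whole lncRNA table was shifted downwards at 7 dpa, with a median log2 change of -0.23 over all tested. TMM factors of the lncRNA table moved that median to -0.03. They gave 37 rises and 18 falls, and quantile normalization gave 42 and 20. Of the 32 rises 28 remained called in all 3 scaling alternatives, and of the 55 falls 18 did. An equal mRNA plus lncRNA total left the median at -0.18 and gave 31 rises and 47 falls. Which direction held more lncRNAs thus differed between scalings. The count of 87 calls also fell when single libraries were left out, to 48, 36 and 43 without replicates 1, 2 and 3 of intact fin and to 34, 24 and 51 without replicates 1, 2 and 3 of 7 dpa. In all of the 15 alternatives that tested them, 7 rises and 10 falls remained called.

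The most abundant lncRNA, an assembled transcript, accounted for 90.4% of the summed signal lost by the called falls, 1775 of 1963 units. The mean lncRNA total changed by -3701 units at 7 dpa, so the called falls do not make up the whole decline. This lncRNA had 3277, 4399 and 4851 in intact fin and 2354, 2460 and 2389 at 7 dpa, with no overlap, and 1181, 1456 and 1155 at 3 dpa. The change at 7 dpa was -0.78 (SE 0.18, limma adjusted p = 0.0290). The call was lost in 10 of 15 alternatives, among them TMM factors and leaving out replicate 2 or 3 of intact fin or any library of 7 dpa, with adjusted p from 0.0151 to 0.573. The next 9 lncRNAs by abundance were not called, and each of them overlapped between the groups. Together the 10 held 77.7% ± 2.05 of the lncRNA signal in intact fin and 76.7% ± 1.97 at 7 dpa (SD, n = 3). Of the 100 most abundant in intact fin, 86 were also among the 100 most abundant at 7 dpa, and 5 of the 100 leading over both groups rose and 9 fell, beside 1.92% and 3.29% of all tested lncRNAs. That balance of directions too is subject to the scaling described above.

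The named lncRNA rises came from levels at or near 0, so their size depends on the pseudocount. The annotated ENSDART00000175077 had a value of 0 in every intact library, against 2.12, 0.53 and 0.94 at 7 dpa (limma adjusted p = 0.0281), and 0.71, 0.53 and 0 at 3 dpa. Its call was lost without any single library of either group, with adjusted p up to 0.103. Without the 7 dpa libraries it would not have passed the filter on low values, which favours the call. The assembled TCONS_00029966 had 0.24, 0 and 0.12 in intact fin and 1.54, 1.96 and 1.60 at 7 dpa, a 14.2-fold ratio of means (log2 change 3.19, SE 0.44, limma adjusted p = 0.00351). It had 2.54, 2.46 and 1.43 at 3 dpa, and its call held in all 15 alternatives. With a pseudocount of 1 in place of 0.1 the log2 changes of the 2 rises were 1.07 and 1.27.

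The named falls ended at or near 0, and with a pseudocount of 1 their log2 changes were -1.06 and -0.93. The annotated ENSDART00000158696 had 0.44, 1.36 and 1.68 in intact fin and every 7 dpa library listed it at 0 (limma adjusted p = 0.00688), a call that held in all 14 alternatives that tested it. The assembled TCONS_00044431 had 0.85, 1.24 and 1.44 in intact fin and 0, 0 and 0.47 at 7 dpa (log2 change -2.81, SE 0.70, limma adjusted p = 0.0438). Its call was lost in 10 of 14 alternatives, including TMM factors, quantile normalization and leaving out any intact library or replicate 1 or 2 of 7 dpa, with adjusted p up to 0.135. Without the intact libraries neither of these falls would have passed the filter on low values, which favours both calls.

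Calls in the lncRNA table were also more frequent at high levels. Of the 87 calls 47 lay in the highest quintile, where 14 lncRNAs rose and 33 fell (14.0% of 335), and 4 in the lowest quintile (1.20% of 334). The 12 rises of at least 4-fold had means of 0 to 0.247 in intact fin and 0.333 to 1.70 at 7 dpa. The 16 falls of at least 4-fold had means of 0.433 to 12.1 in intact fin and 0 to 3.17 at 7 dpa. Of the 4494 listed lncRNAs, 18 (0.40%) were at 0 in all intact and above 0 in all 7 dpa libraries. The reverse held for 25 (0.56%). In these sets the median of the mean signal was 0.215 and 0.217, and 1 lncRNA in each reached a mean of 1. Only 12 and 16 of them were tested. There were 21 rises (1.76%) and 36 falls (3.02%) among 1191 annotated lncRNAs and 11 (2.29%) and 19 (3.96%) among 480 assembled ones, a difference that was not tested. The balance of directions within each quintile and class is subject to the scaling described above.

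Of the circRNAs 21 were called (0.654% of those tested). Of these 15 had a larger share of circRNA reads at 7 dpa (0.467%) and 6 a smaller one (0.187%), by limma on log2(RPM + 73.8), where 73.8 RPM is the mean worth of 1 read. With TMM factors the split was 18 and 3. Before adjustment 272 circRNAs (8.47%) passed 0.05, 123 higher and 149 lower. All libraries at 7 dpa lay above the intact ones for 6.1% of tested circRNAs and below for 5.98%. A change in the total of circular RNA would not show in these shares. In this fit a circRNA's standard error came almost wholly from a trend of spread with level, and hardly from its own replicates. Few counts stood behind most circRNAs. Of the 21 calls 15 were among the 185 circRNAs averaging 10 reads or more over the libraries, 4 among the 481 averaging 3 to 10 and 2 among the 2547 with fewer. The 95% interval of the change lay within 2-fold for 55 circRNAs (1.71%), so for most of the table these libraries could neither show nor bound a 2-fold difference. Reads of replicates differed by more than counting error among circRNAs with at least 10 reads in a pair of libraries. For replicates 1 and 2 chi-square was 1438 on 568 degrees of freedom in intact fin and 1211 on 425 at 7 dpa. It exceeded its degrees of freedom in every pair within these groups. What part depth and this spread between replicates had in the wide intervals was not tested.

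More rises than falls held when the analysis was varied. Of the 15 rises, 9 remained called without any single library, and 6 in all 16 alternatives that tested them, which include edgeR's quasi-likelihood test and DESeq2 on the recovered reads. None of the 6 falls remained called throughout. By edgeR 13 circRNAs were higher and 0 lower at an adjusted p under 0.05, with 160 higher and 103 lower at an unadjusted p under 0.05, the opposite balance to limma's, and DESeq2 gave 10 and 1. Of the 6 falls, 0 remained called without replicate 1 of intact fin or replicate 3 of 7 dpa and 1 without replicate 2 of either group. Without replicate 3 of intact fin 2 remained, and without replicate 1 of 7 dpa 3 did. The 15 called rises held 2.48%, 2.67% and 1.497% of circRNA reads in intact fin and 7.64%, 7.48% and 6.14% at 7 dpa, with 12.6% ± 1.01 (SD, n = 3) at 3 dpa.

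**Figure D5:**
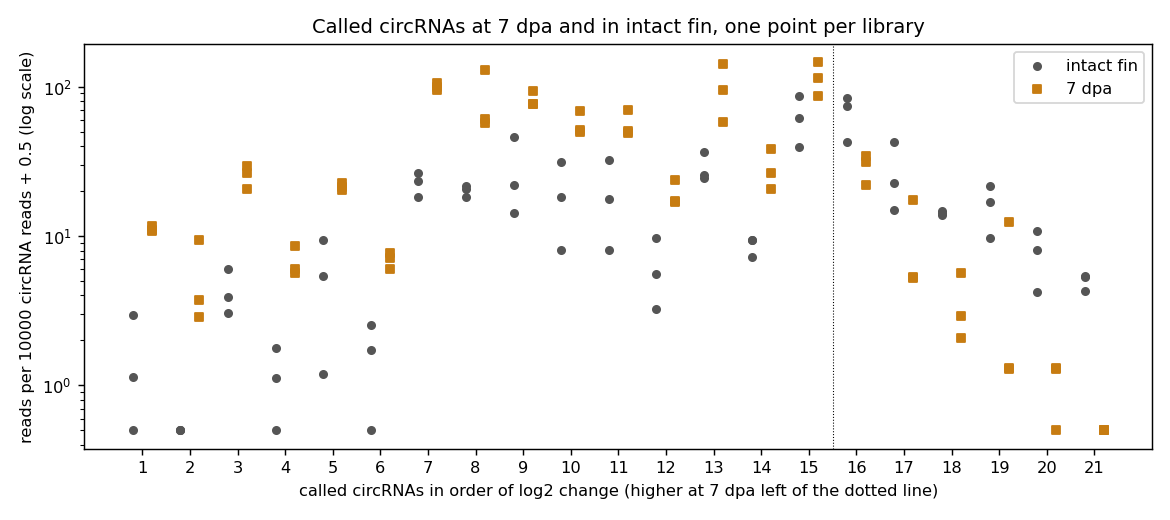
Reads per 10000 circRNA reads, plus 0.5, on a log scale for the 21 called circRNAs, ordered by log2 change, with 1 point per library (grey circles intact fin, orange squares 7 dpa). The first 15 were called higher and the last 6 lower, and 2 of the 6 falls overlap between the groups.

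The largest rise on the log2(RPM + 73.8) scale was that of novel_circ_004062, with 1, 4 and 0 reads in intact fin and 15, 13 and 13 at 7 dpa. All 7 dpa libraries were above all intact ones, as the naming rule required (log2 change 2.94, SE 0.51, limma adjusted p = 4.20e-06). The call held in all 16 alternatives, with limma adjusted p up to 0.0289, at a pseudocount of 1 RPM. As a share of circRNA reads, summed over each group, it was 9.91-fold higher, with an exact 95% interval of 3.92 to 32.1 that covers counting error only. At 3 dpa it had 22, 16 and 27 reads. novel_circ_005125 had no read in intact fin and 12, 3 and 4 at 7 dpa (limma adjusted p = 0.0386). Without the 7 dpa libraries it would not have passed the filter, which favours the call. Its log2 change exceeded that of novel_circ_004062 by edgeR and with a pseudocount of 1 RPM, values that depend on what is added to 0. As a share of circRNA reads, an exact 95% interval for counting error only reached down to 5.64-fold higher. Against a floor of 3 reads in 46674 of the intact group it was 7.65-fold higher, taking its 19 reads at 7 dpa as exact. Replicate 1 of 7 dpa held most of them, and the call was lost without it, without replicate 3 of 7 dpa and without any intact library, with limma adjusted p up to 0.418, and also with a pseudocount of 1 RPM and with no filter.

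The named falls rest on few reads. novel_circ_001935 had 6, 8 and 7 reads in intact fin and none at 7 dpa (limma adjusted p = 0.0284). Without the intact libraries it would not have passed the filter, which favours the call. Against 3 reads over the 38638 of the 7 dpa group it was 5.79-fold lower, taking the 21 intact reads as exact. The exact 95% interval of its ratio, for counting error only, reached up to 0.232. novel_circ_003700 had 12, 6 and 15 reads in intact fin and 0, 1 and 1 at 7 dpa, a ratio of 0.0732 with an exact 95% interval of 0.00851 to 0.286 for counting error only (limma adjusted p = 0.0424). Both calls were lost without any single library of either group, with limma adjusted p up to 0.134 and 0.338. Both were also lost with a pseudocount of 1 RPM (0.296 and 0.695), with no filter and by edgeR, and that of novel_circ_003700 with TMM factors, quantile normalization and DESeq2.

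Some of the called circRNAs had neighbouring numbers. Of the 15 rises 9 had another called rise within 4 numbers, in 3 sets of 3, and of the 6 falls 2 had another called fall. The share of neighbours over all circRNAs was not computed, and not every circRNA numbered between the members of a set was called. In one set the most abundant member had 34, 74 and 20 reads in intact fin and 102, 119 and 95 at 7 dpa (log2 change 1.74, SE 0.25, limma adjusted p = 8.54e-09). In another it had 36, 42 and 26 and then 128, 134 and 123 (log2 change 2.15, SE 0.26, limma adjusted p = 2.33e-13). In the last it had 57, 39 and 37 and then 192, 120 and 71 (log2 change 1.68, SE 0.25, limma adjusted p = 1.10e-08). There replicate 1 of 7 dpa was well above the others, a spread that the standard error hardly takes in. These 3 sets were singled out after their values were seen, and the files do not say whether neighbouring numbers share a host gene. A pair in the first set had nearly equal reads in every library, with 27, 52 and 11 against 28, 50 and 11 in intact fin and 67, 88 and 60 against 69, 87 and 61 at 7 dpa, so its members are not independent calls.

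The leading circRNAs were not called. None of the 10 most abundant passed the test, and all overlapped between the groups. The first had 589, 682 and 456 reads in intact fin and 465, 445 and 585 at 7 dpa, from a smaller total of reads (log2 change 0.07, SE 0.17, limma adjusted p = 0.934). Of the 50 most abundant 7 rose and 1 fell, beside 0.467% and 0.187% of all tested circRNAs, where few reads limit what can be called. Of the 100 most abundant in intact fin 77 were also among the 100 most abundant at 7 dpa.

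Measures over whole libraries were compared with an exact two-sided permutation test, in which 3 against 3 libraries cannot give a p under 0.1. The lncRNA total was 16277, 18599 and 19570 in intact fin and 12684, 15428 and 15233 at 7 dpa, lower in all 3 regenerates without overlap (exact permutation p = 0.1, adjusted p = 0.275 over 11 measures). Taken relative to the mRNA total of each library, the lncRNA total overlapped between the groups (exact permutation p = 0.2). The mRNA total overlapped, with 433478 ± 8440 and 420474 ± 12120 (SD, n = 3; exact permutation p = 0.3). The count of mRNA transcripts reaching a signal of 1 was 23194 ± 94.2 in intact fin and 22735 ± 156 at 7 dpa, and that of lncRNAs reaching 0.1 was 1481 ± 33.2 and 1418 ± 25.9, both without overlap (exact permutation p = 0.1 each). The 10 most abundant mRNAs of each library held 13.6% ± 0.44 and 12.3% ± 0.60 of the signal, also without overlap (exact permutation p = 0.1). At an equal number of 12070 reads 2429 ± 96.5 distinct circRNAs were found in intact fin and 2330 ± 52.8 at 7 dpa, which overlapped (exact permutation p = 0.2).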

How the data were processed

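Total RNA of caudal fins was sequenced as stranded libraries, per the labels' protocols. The submitters' processing notes list cutadapt, RSEM, edgeR and TopHat2 2.0.3.12, without roles, and name hg38, a human build, although the IDs are from zebrafish. Neither the build used nor the tool that found circRNAs is given in the sources used here. The deposited mRNA and lncRNA signal is normalized with 2 decimals, and FPKM or TPM is not stated. The deposited circRNA RPM values were all (100%) whole multiples of 1 read (61.5 to 82.9 RPM) within 0.001 reads. None of the IDs was in the name tables used, so gene lists were not tested. Groups and replicate numbers came from sample titles. No label says that replicates were separate animals, so the p-values rest on a spread between samples that may be technical.

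All 9 libraries were fitted with limma 3.58.1 in R 4.3.3 (with a mean-variance trend and robust variances) on log2(value + pseudocount), adding 1 in the mRNA table, 0.1 in the lncRNA table and 73.8 RPM (1 read) in the circRNA table. Kept transcripts had at least 1, at least 0.1 or above 0 in at least 3 of all 9 libraries, those of 3 dpa included. Adjustment was over each whole table. edgeR 4.0.16 and DESeq2 1.42.0 were alternatives on circRNA reads. The other alternatives were another pseudocount, filters, scalings, only the 2 groups, no robust setting, the replicate block and leaving out libraries. The naming rule took the 2 largest rises and falls per table among calls without overlap and with a mean in the higher group of 10 (mRNA), 1 (lncRNA) or 5 reads (circRNA) or more, plus the 10 most abundant transcripts by rank. Only the limma fit was tried on simulated data with known changes. The members and lists were chosen with earlier results of these data known.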

Additional observations from a re-analysis of the deposited data

How the results depend on the processing

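The mRNA counts stayed within 1.5 times under all alternatives except the stricter filter, which tested 7224 transcripts and called 3486 (1926 higher, 1560 lower). Leaving out single libraries gave 4602 to 5273 mRNA calls. For lncRNAs TMM factors gave 55 calls with 18 falls, quantile normalization 20 falls, and only the 2 groups compared 48 calls (16 higher, 32 lower). Leaving out single libraries gave 24 to 51 lncRNA calls, with 9 to 19 higher and 15 to 33 lower. For circRNAs the falls numbered 3 with a pseudocount of 1 RPM, 1 without a filter and 3 with TMM factors. edgeR called 13 circRNAs with 0 falls, and DESeq2 11 with 1 fall among 597 with an adjusted p. Leaving out single libraries gave 12 to 18 circRNA calls, with 0 to 5 falls. At 0 falls without replicate 1 of intact fin or replicate 3 of 7 dpa, limma still had 127 falls at an unadjusted p under 0.05 in each case. The cause of these differences was not tested. The replicate block gave 5542 mRNA, 47 lncRNA (21 higher, 26 lower) and 21 circRNA calls. Deviations of same-numbered libraries of both groups correlated at -0.023 to 0.0706 for mRNA, -0.0398 to 0.0229 for lncRNA and 0.00231 to 0.0214 for circRNA. Those of differently numbered libraries correlated at -0.114 to 0.0558, -0.0265 to 0.0576 and -0.0374 to 0.021. No large shared deviation was seen, but 3 libraries per group cannot show whether the numbers pair the libraries. The share of circRNA reads in the 10 most abundant circRNAs, lower by -0.112 percentage points at 7 dpa (exact permutation p = 0.8), ranged from -1.20 to 0.759 when single libraries were left out, being higher at 7 dpa at 0.0996 and 0.759 without replicates 2 and 3 of intact fin and 0.231 without replicate 1 of 7 dpa, and at 2.96 for the 50 most abundant. Depth limits the circRNA results, and for mRNA and lncRNA it is unknown.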

Other observations

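The pseudocount differed between the RNA classes, so the shares that follow are not compared. A 2-fold or larger estimate without a call was found for 249 mRNAs (0.996% of those tested), 288 lncRNAs (17.2%) and 575 circRNAs (17.9%). The largest of them in the mRNA table, an annotated transcript singled out after its values were seen, had 866, 984 and 831 in intact fin and 1182, 0 and 59.4 at 7 dpa. Replicate 1 of 7 dpa was above every intact library while replicate 2 was listed at 0 (log2 change -4.43, SE 1.99, limma adjusted p = 0.138). At 3 dpa it had 495, 1037 and 1039. A second annotated mRNA varied within both groups, with 323, 61.5 and 453 in intact fin and 278, 14.4 and 2.25 at 7 dpa (limma adjusted p = 0.138).

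The 2 largest such estimates among lncRNAs belonged to assembled transcripts with consecutive numbers, also singled out afterwards. One had 0, 1.23 and 0 in intact fin and 2.85, 1.13 and 3.01 at 7 dpa (log2 change 3.24, SE 0.89, limma adjusted p = 0.0643). The other had 1.91, 1.42 and 3.06 in intact fin and 0, 2.58 and 0 at 7 dpa (log2 change -2.83, SE 1.01, limma adjusted p = 0.140). In replicates 1 and 3 of 7 dpa the first was high and the second listed at 0, and in replicates 1 and 3 of intact fin it was the reverse. Replicate 2 held both in each group. At 3 dpa the first was listed at 0 in all libraries and the second had 2.57, 2.72 and 2.81.

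Besides the pair of called circRNAs with nearly equal reads, 2 more pairs had reads within 10% of each other in every library. One of these pairs ranked 5th and 6th in abundance, with 177, 250 and 282 reads in intact fin against 177, 244 and 281, and 233, 126 and 102 at 7 dpa against 233, 128 and 101. Counts of distinct circRNAs and of circRNA calls take the members of such pairs as separate.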
